A study of Mus musculus with 24 samples.

Results

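The ventral prostates of 2 inbred mouse strains, AKR and BALB/c, were compared on Affymetrix MOE430A arrays, with 4 biological replicates of each strain. These were the 8 arrays, of 24 in the series, whose titles begin with the strain name and the ventral prostate. The other 16 arrays came from SWR, 129X1, FVB and C57BL/6 mice, 4 of each. All mice were wild type, 8 weeks old and untreated, and were kept on a standard mouse diet. No engineered change or treatment therefore separates the strains. The labels call the replicates biological and do not say whether an array holds 1 animal or a pool. The p-values below test the difference between strain means against the spread within strains, estimated from all 24 arrays. Whether that spread is between animals or between pools is not known. The strains differ throughout the genome, and the comparison asks how the tissue differs between them and cannot attribute a difference to a locus.

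The ventral lobe of the mouse prostate is a gland of secretory luminal cells that line ducts, with basal cells beneath them and a thin sheath of smooth muscle and connective tissue around them. Luminal cells depend on androgen and export large amounts of protein through the endoplasmic reticulum (ER), where chaperones fold and enzymes glycosylate what is secreted. Inbred strains carry fixed and different alleles at many genes, among them the genes of the major histocompatibility complex (MHC), which present peptides to T cells.

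Each probe set, a group of oligonucleotides that reads 1 transcript or several similar ones, gave 1 intensity per array. No detection call was used here. Every deposited column had a mean intensity of 143.08. The 2% trimmed means were 98.9 to 102.5 in AKR and 91.4 to 95.0 in BALB/c, and the arrays were rescaled to one trimmed mean of 98.7. The 20 brightest probe sets held 3.93% to 5.03% of the intensity in AKR and 5.02% to 5.76% in BALB/c. Levels below are log2(intensity + 16), a scale that starts at 4 and understates the fold change of faint genes. The tissue label was checked against markers of the prostate and of the seminal vesicle. Msmb, a major secreted protein of the prostate, read 11.88 to 13.69, whereas the brightest reading of the seminal vesicle genes Svs2, Svs4 and Svs6 on any of the 8 arrays was 5.11. Svs5, another of them, read 5.57 to 6.28 at its brightest probe set. Pbsn, listed here with genes of other prostate lobes, read 9.84 to 12.50 in AKR and 12.66 to 13.10 in BALB/c. These readings do not tell the ventral lobe from the other lobes. The correlation of log2 values between arrays was 0.940 to 0.958 within AKR, 0.939 to 0.958 within BALB/c and 0.906 to 0.929 between the strains, and 8 of 8 arrays matched best with an array of their own strain.

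AKR and BALB/c differed at 1992 of 15775 probe sets tested (12.6%) by limma at a Benjamini-Hochberg adjusted p under 0.05, a result termed a call below. Of these, 1087 were higher in AKR (6.89% of those tested) and 905 were lower (5.74%), so that 54.6% of the calls were higher in AKR. Without the rescaling the split was 1804 higher and 569 lower, with 76.0% higher, and the median difference of all probe sets moved from 0.03 to 0.12. The share that is higher therefore depends on the scaling and is not read as a property of the tissue. The median fold of the called probe sets was 1.52, 317 (2.01%) were called and at least 2-fold apart (175 higher, 142 lower), and 54 were at least 4-fold apart (26 higher, 28 lower). In 2154 probe sets (13.7%) the 4 arrays of one strain did not overlap the 4 of the other, and 1550 of the 1992 called were among them. Counts over the 15 pairs of strains ran from 1084 (SWR and FVB, 6.87%) to 3117 (SWR and BALB/c, 19.8%).

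**Figure D1:**
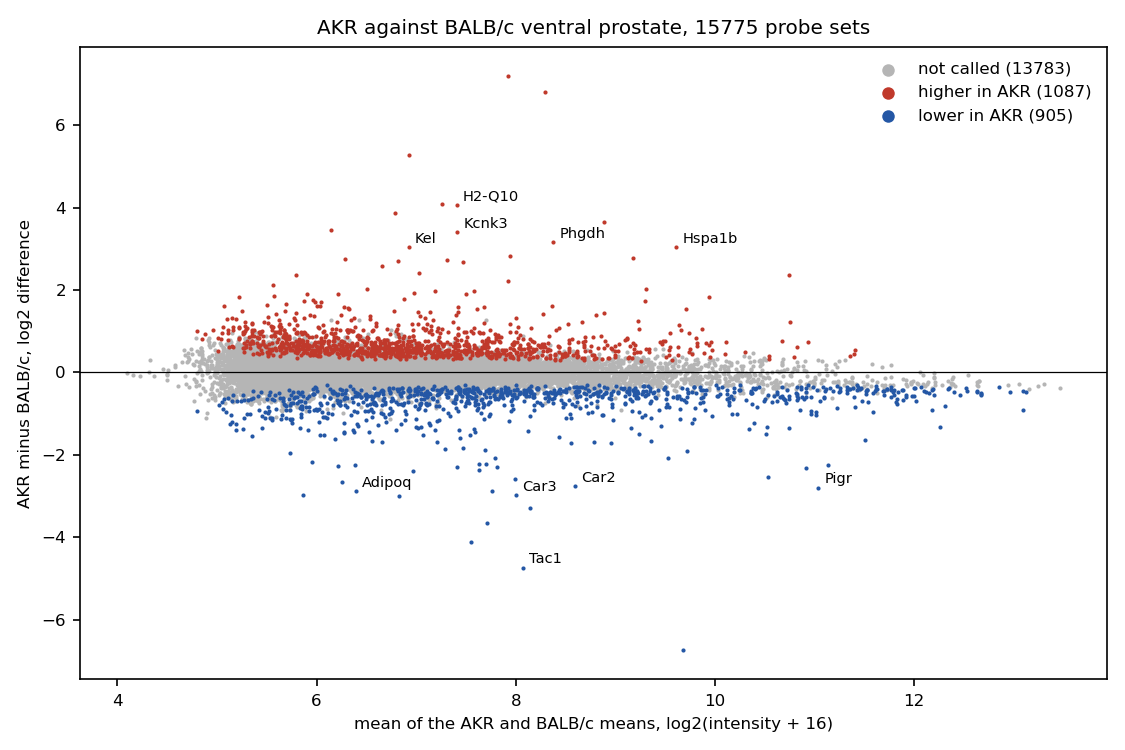
Each of the 15775 probe sets is a dot, with the mean of the AKR and BALB/c means on the x axis, log2(intensity + 16), and the AKR minus BALB/c difference on the y axis, log2. Red dots are the 1087 probe sets called higher in AKR, blue dots the 905 called lower and grey dots those not called; names mark 5 genes in each direction, and the largest differences, past 5 log2 units, are probe sets without a single gene symbol.

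For the 317 probe sets at least 2-fold apart, the means of the other 4 strains show which strain stood to one side. In 109 of them BALB/c alone lay outside the range of the other 4 strain means, in 47 AKR alone did, in 117 both did and in 44 neither did. Seen by gene, at the brightest tested probe set of each, 527 of 9431 genes were higher in AKR (5.59%), 516 were lower (5.47%), and the median difference was 0.02. The gene lists below are read against these shares and this median.

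The gene with the largest difference was Tac1, which encodes the precursor of the neuropeptides substance P and neurokinin A. Its level was 5.92, 5.39, 5.78 and 5.71 on the AKR arrays and 10.39, 10.62, 10.38 and 10.37 on the BALB/c arrays. The difference of -4.74 ± 0.17 (SE) is 26.7-fold (limma adjusted p = 2.5e-15), and the groups lie far apart. SWR stood near BALB/c, with a mean of 10.13, 129X1 (9.30) and FVB (8.33) lay between, and C57BL/6 (6.50) was the closest to AKR. In a bulk sample such as this, fewer cells of a type and less RNA per cell cannot be told apart. Tac1 had 1 tested probe set. How well the probes match each strain's allele was not tested, for this gene or for the others below.

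Pigr, Car2, Fcgbp and Rnase1 were among the 15 genes with the largest differences lower in AKR. Pigr, the receptor that carries polymeric immunoglobulin across epithelia, read 9.84, 9.62, 9.56 and 9.54 in AKR and 12.46, 12.33, 12.47 and 12.50 in BALB/c, a 6.94-fold difference (adjusted p = 1.1e-10), and both of its probe sets were called. Car2, a carbonic anhydrase that interconverts carbon dioxide and bicarbonate, read 7.03 to 7.41 in AKR and 9.17 to 10.57 in BALB/c (6.72-fold, adjusted p = 1.3e-09). In the other 4 strains Car2 had means of 7.04 to 7.37, the level of AKR, so BALB/c alone was high. The ribonuclease gene Rnase1 was 4.21-fold lower in AKR (adjusted p = 0.0037), but its 4 AKR arrays spread from 6.46 (replicate 1) to 9.65, and the call was lost in the fit to the 8 arrays alone. Fcgbp, a mucus protein that binds immunoglobulin, was 5.97-fold lower, with a wide BALB/c range of 7.79 to 11.41.

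Other genes in this direction have roles in the cytoskeleton, calcium binding and metabolism. Cap1, an actin-binding protein, had a mean of 6.59 ± 0.21 in AKR and 8.81 ± 0.16 in BALB/c (SD, n = 4), and its level in C57BL/6 (6.28) was like that in AKR, whereas SWR, 129X1 and FVB had means of 8.59 to 8.88. Fbp2, the muscle form of a gluconeogenic enzyme, was 4.53-fold lower, Anxa13, an annexin, 4.23-fold, and Tesc, a calcium-binding protein, 3.86-fold. Cfap298, named for cilia and flagella, was 4.72-fold lower at 1 of 2 probe sets, and its other probe set was not called. Scgb2b27, a secretoglobin of a family of close copies, was 4.87-fold lower, with FVB (10.73) and SWR (9.47) above BALB/c (8.96). Members of that family may share signal.

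The genes higher in AKR were ranked at their brightest called probe set without overlap. By this rule H2-Q10, an MHC class I gene whose product is secreted, came first. Its level was 9.0, 9.56, 9.96 and 9.25 in AKR and 4.97, 4.91, 5.41 and 6.19 in BALB/c, a difference of 4.07 ± 0.24 (SE) or 16.8-fold (limma adjusted p = 1.3e-11). The 6 strains fell into separate levels: 129X1 (9.69) was with AKR, C57BL/6 (7.94) lay below, and SWR (4.61) and FVB (4.52) were as low as BALB/c. H2-Q10 had 1 tested probe set, and its match to the allele of each strain was not tested. Probe sets of H2-D1, another class I gene, went in both directions, as described below. Kcnk3, a background potassium channel, read 9.10, 8.30, 9.14 and 9.93 in AKR and 5.25, 5.03, 6.50 and 6.02 in BALB/c (10.7-fold, adjusted p = 3.7e-09), and all 3 of its probe sets were called higher.

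2 neighbouring genes of calcium entry and peptide cleavage followed. Kel, the metallopeptidase of the Kell blood group, had a mean of 8.45 ± 0.17 in AKR and 5.40 ± 0.26 in BALB/c (8.29-fold, adjusted p = 4.1e-13). Trpv6, the epithelial calcium channel, had a mean of 9.03 ± 0.39 in AKR and 6.81 ± 0.29 in BALB/c (4.66-fold, adjusted p = 1.3e-09; SD, n = 4 for both genes). Ephb6, the tested gene beside them, was also called, 1.62-fold higher. In both genes BALB/c had the lowest mean of the 6 strains and AKR and SWR the highest (SWR 8.26 for Kel and 9.40 for Trpv6), with C57BL/6 (6.94 and 8.96), FVB and 129X1 between.

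For Phgdh, Coro2a and Pdxdc1 it was BALB/c that stood apart from all the other strains. Phgdh, which diverts a glycolytic intermediate into serine synthesis, read 9.88 to 10.06 in AKR and 6.59 to 7.01 in BALB/c at 1 probe set (8.97-fold, adjusted p = 4.4e-15). That probe set does not speak for the gene: the other 3 Phgdh probe sets differed by 0.13, 0.08 and -0.31 and were not called. Coro2a, an actin-associated coronin, read 8.68 to 8.92 against 6.02 to 6.25 (6.44-fold) with a mean of 8.00 to 8.66 in the other 4 strains. Pdxdc1 was higher at 3 probe sets, by up to 6.56-fold, and lower at the fourth, by 4.68-fold, so no single direction can be given for the gene.

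Azgp1, Ctse, Tspan8 and Krt7 were also among the 15 genes with the largest differences higher in AKR. Azgp1, a secreted glycoprotein, read 11.72, 11.76, 12.11 and 12.13 in AKR and 9.67, 9.13, 9.66 and 9.76 in BALB/c (5.19-fold, adjusted p = 4.3e-12). Ctse, the aspartic protease cathepsin E, was 5.33-fold higher at 1 of 2 probe sets, the surface protein gene Tspan8 3.96-fold at its brightest called probe set, with 3 of 4 called, and the epithelial keratin gene Krt7 3.79-fold at its only one. Hspa1b, Hspa1a, Myh1 and Acta1 complete this set and are described with their gene groups.

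**Figure D2:**
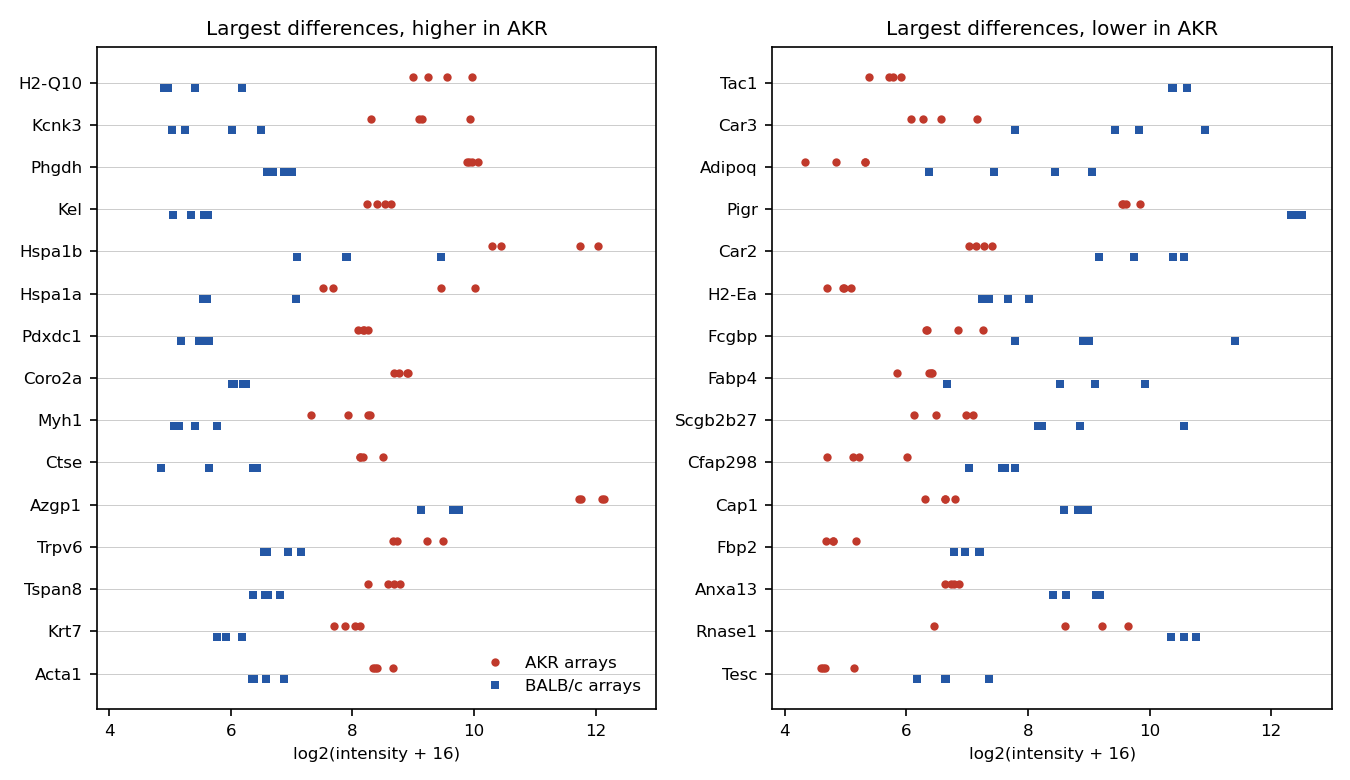
Each gene's level, log2(intensity + 16), is shown on the 4 AKR arrays (red circles) and the 4 BALB/c arrays (blue squares) for the 15 named genes with the largest differences in each direction. The arrays of the strains overlap for none of them, since that was part of the rule that chose them; Tac1, Pigr, Phgdh and Coro2a have narrow groups, whereas Adipoq, Car3, Fabp4 and Fcgbp spread widely in BALB/c.

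**Figure D3:**
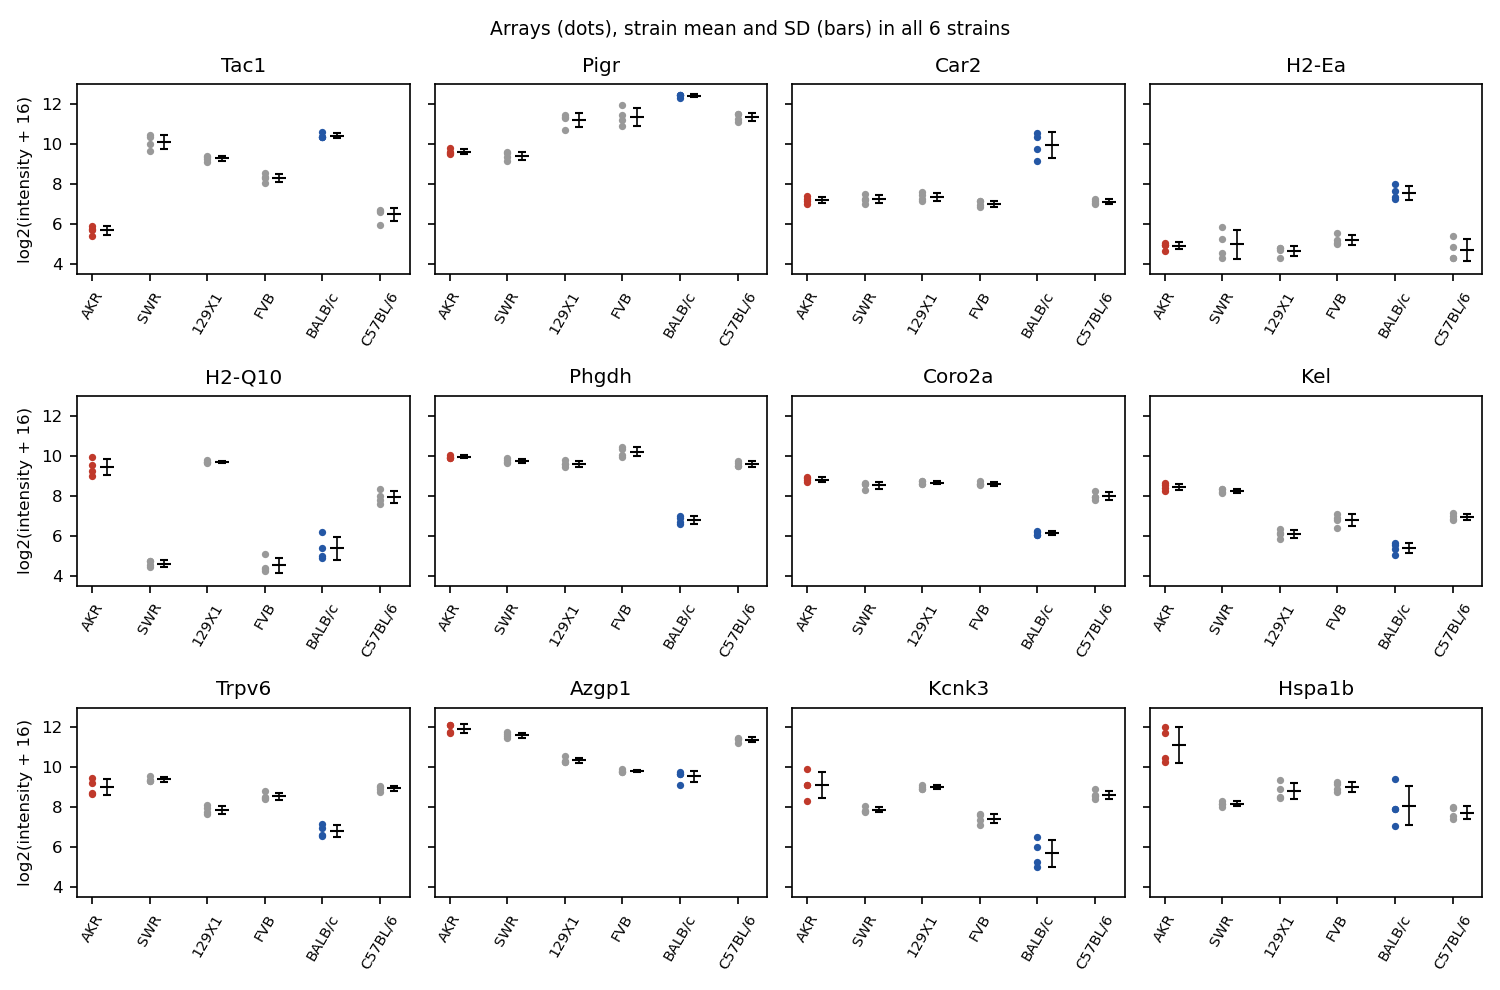
Levels of 12 named genes, log2(intensity + 16), are plotted for every array of the 6 strains (dots; AKR red, BALB/c blue, other strains grey) with the strain mean and SD. BALB/c stands alone for Car2, H2-Ea, Phgdh and Coro2a, AKR is highest for Hspa1b, and Tac1 and H2-Q10 have other strains near both AKR and BALB/c.

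13 of the 54 probe sets at least 4-fold apart had no single gene symbol, 9 with none and 4 with several, and they included the largest differences. Probe set 1456182_x_at, with no symbol, read 11.61, 11.54, 10.71 and 12.23 in AKR and 4.13 to 4.53 in BALB/c, a 148-fold difference, and its mean was 4.09 to 4.24 in the other 4 strains. Probe set 1451704_at, annotated to 2 genes, went the other way by 108-fold, with 5.28 to 6.93 in AKR and 12.95 to 13.14 in BALB/c. Its mean was 10.13 in SWR, 7.58 in C57BL/6 and 5.40 to 5.52 in the other two. These probe sets name no gene here and enter no list.

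Gene groups were described by 37 lists of processes and cell types, each gene taken at its brightest tested probe set. The largest group shifts, as medians, were in the smooth muscle, heat shock and basal cell lists on the AKR side and in the adipocyte, haemoglobin and ribosomal protein lists on the BALB/c side. The haemoglobin list held only 3 tested genes, and the ribosomal protein median was -0.02 under quantile normalization.

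**Figure D4:**
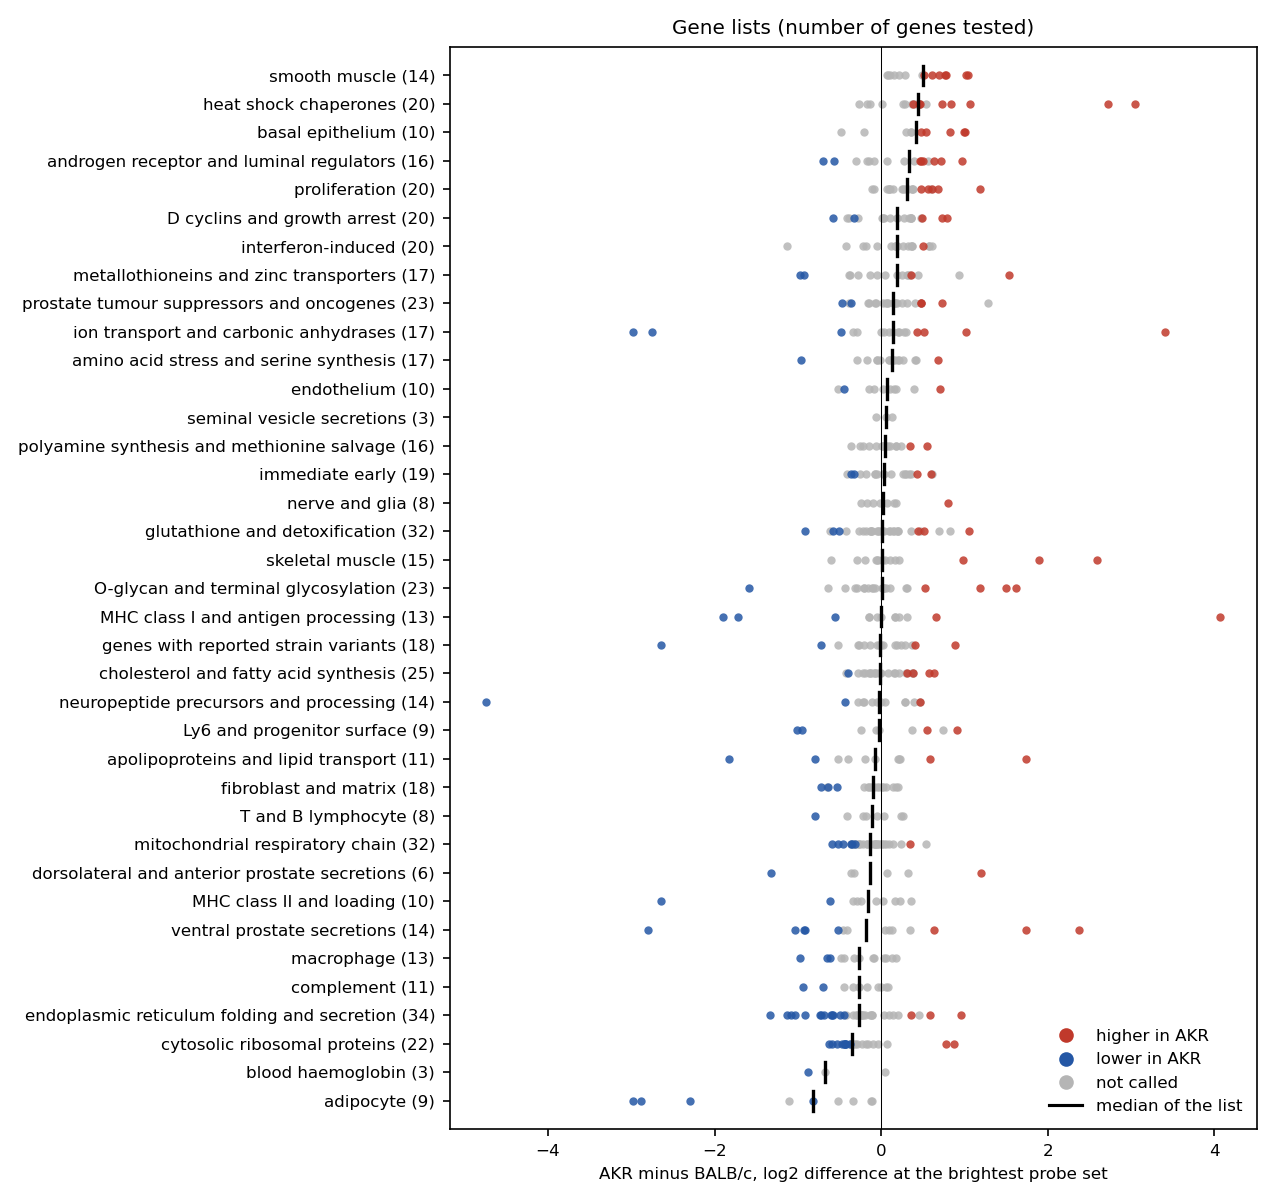
Each dot is a gene of one of the 37 lists, placed by its AKR minus BALB/c difference (log2) at its brightest tested probe set, red if called higher in AKR, blue if called lower and grey if not called; black bars are list medians and numbers in brackets the genes tested. The smooth muscle, heat shock and basal lists sit highest, with medians of 0.50, 0.44 and 0.42, and the adipocyte list lowest, with -0.81.

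Of 14 ventral prostate secretion genes tested, 5 were lower in AKR and 3 higher, with a median of -0.18 that turned to 0.02 under quantile normalization. Beside Pigr, the lower genes included Agr2, which helps mucins and other secreted proteins fold (2.05-fold, adjusted p = 0.00016), and the plasma glutathione peroxidase gene Gpx3 (1.88-fold). Msmb read 11.88, 12.72, 13.04 and 12.88 in AKR and 13.40 to 13.69 in BALB/c (1.89-fold), and its call was lost under quantile normalization. The higher genes included Azgp1 and Apof, which encodes an apolipoprotein (3.34-fold, 9.65 to 10.52 against 7.89 to 8.94, adjusted p = 7e-06). Probasin, Pbsn, an androgen-dependent secretion, was 2.51-fold lower, but it read 9.84 on AKR replicate 1 and 11.99 to 12.50 on the others, against 12.66 to 13.10 in BALB/c, and the call was lost under quantile normalization and in the fit to the 8 arrays alone. AKR replicate 1 was thus the lowest AKR array for Msmb, Pbsn and Rnase1 alike. Among the other 5 dorsolateral and anterior prostate genes tested, Kcnn4, a calcium-activated potassium channel, was called, 2.29-fold higher.

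Of 16 androgen receptor and luminal regulator genes, 6 were higher in AKR and 2 lower (median 0.34). The fraction of higher genes was above the 5.59% of all genes, but 2 of the 6 remained in the fit to the 8 arrays alone. Fkbp5, an immunophilin and a known androgen-induced gene, rose 1.95-fold (9.82 to 10.18 against 8.88 to 9.45, adjusted p = 3.6e-05), and Aldh1a1, which makes retinoic acid, rose 1.64-fold (adjusted p = 0.00016). The luminal keratin gene Krt18 fell 1.62-fold, with 10.67 to 10.76 in AKR and 11.37 to 11.47 in BALB/c (adjusted p = 3.7e-06), and its partner Krt8 was 1.48-fold lower at the brightest of 3 probe sets, all called lower, a call lost in the fit to the 8 arrays alone. The androgen receptor gene itself was not analysed here.

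The ER folding and secretion list held 34 tested genes, of which 13 were lower in AKR and 3 higher, against 5.47% and 5.59% of all genes, with a median of -0.27. Sec61b, a subunit of the channel that takes new proteins into the ER, read 9.75, 9.93, 10.06 and 9.69 in AKR and 11.26, 11.14, 11.12 and 11.23 in BALB/c (2.52-fold lower, adjusted p = 1e-08). The chaperone gene Hyou1 fell 2.19-fold, Derl3, which serves the disposal of misfolded proteins, 2.11-fold, and Hsp90b1, the ER form of Hsp90, 1.61-fold. Ero1b, an oxidase that drives disulfide formation, fell 1.67-fold and Manf, a secreted stress-response protein, 1.64-fold. Calr, a lectin chaperone, read 11.30, 11.69, 11.86 and 11.63 in AKR and 12.14 to 12.27 in BALB/c (1.51-fold) and lost its call under quantile normalization, where 9 genes of the list were lower. Leaving out single arrays gave 10 to 15 lower genes. The 3 higher genes, Herpud1, Atf4 and Sel1l, serve ER-associated degradation or stress signalling. They were 1 without AKR replicate 3 or 4 or any BALB/c array, and none was called in the fit to the 8 arrays alone.

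Many ER chaperone promoters carry a known sequence, the ER stress element, CCAAT and CCACG with 9 bases between them. It was searched for on both strands, as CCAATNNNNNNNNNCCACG, in RefSeq promoters of the C57BL/6J reference (GRCm38.p6, 250 bases before to 50 after the start). It occurs in 39 of 32851 promoters (0.119%) and, counted by gene, in 10 of the 29 ER list genes with a promoter (34.5%). Because the list holds ER chaperone genes, many of them known to carry the element, this share says nothing about the strains. By call, it was in 7 of 11 lower, 0 of 3 higher and 3 of 15 not called. The lower genes include Canx, whose probe sets were called in both directions. The motif was chosen after the values were seen, and a link between the element and the calls was not tested. Promoters from the lower genes are shown with that of Hspa5 (BiP), the main ER chaperone, which carries the element and was not called, with a difference of -0.24. The element is in capitals, in the gene's 5′ to 3′ direction, as spelled or as its reverse complement (Calr, Creld2, Derl3 and Ero1b).
Hspa5 (chr2:34771995-34772073, + strand): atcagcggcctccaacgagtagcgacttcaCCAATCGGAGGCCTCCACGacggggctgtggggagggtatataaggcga
Hsp90b1 (chr10:86705608-86705686, - strand): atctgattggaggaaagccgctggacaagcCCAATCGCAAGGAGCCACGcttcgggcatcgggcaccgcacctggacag
Calr (chr8:84847045-84847123, - strand): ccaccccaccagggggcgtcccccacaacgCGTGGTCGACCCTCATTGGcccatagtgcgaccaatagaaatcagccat
Creld2 (chr15:88819490-88819568, + strand): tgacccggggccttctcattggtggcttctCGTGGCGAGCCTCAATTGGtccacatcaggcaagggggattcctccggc
Derl3 (chr10:75893212-75893290, + strand): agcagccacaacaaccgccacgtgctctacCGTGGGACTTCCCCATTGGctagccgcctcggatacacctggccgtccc
Ero1b (chr13:12565652-12565730, + strand): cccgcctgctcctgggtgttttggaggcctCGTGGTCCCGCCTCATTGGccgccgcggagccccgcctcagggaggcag
All 6 windows lie before the start site, and the element begins 65 bases before it in Hspa5 and 126 to 212 bases before it in the other 5. The Hsp90b1 promoter holds 2 matches, of which 1 is shown. The match describes the reference sequence, and neither AKR nor BALB/c sequence was used.

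Cytosolic heat shock chaperones went the other way. Of 20 tested, 8 were higher in AKR and 0 lower, 17 differences were positive, and the median was 0.44. Hspa1b, an inducible Hsp70, read 10.29, 11.75, 12.04 and 10.45 in AKR and 7.91, 7.09, 9.45 and 7.90 in BALB/c (8.27-fold, adjusted p = 5.6e-06), and all 3 of its probe sets were called. Hspa1a, its near-identical copy, whose signal may be shared, read 7.52, 10.02, 9.45 and 7.69 against 5.61, 5.57, 7.07 and 5.54 (6.61-fold). AKR replicates 2 and 3 were the highest arrays for both genes, and replicate 3 was the highest of BALB/c, so the level varied within each strain as well as between them. The small heat shock protein gene Hspb1 rose 1.66-fold and the co-chaperone gene Dnaja1 1.79-fold, both lost in the fit to the 8 arrays alone, where 2 of the 8 genes were called. Leaving out single arrays gave 5 to 10 higher genes, with 5 in the absence of AKR replicate 3 or of replicates 1 or 4 of BALB/c.

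Cell type lists showed opposite shifts in muscle and fat. All 14 smooth muscle genes had positive differences and 7 were higher in AKR, with a median of 0.50 that was 0.60 without rescaling and 0.50 under quantile normalization. Myh11, smooth muscle myosin, read 9.06, 9.02, 8.82 and 8.73 in AKR and 7.96, 7.96, 7.82 and 7.82 in BALB/c (2.03-fold, adjusted p = 0.00093). Tpm2, a tropomyosin, rose 2.06-fold, Mylk, the kinase that starts contraction, 1.71-fold, and Myl9, its light chain substrate, 1.69-fold. Leaving out single arrays gave 6 or 7 higher genes, and the fit to the 8 arrays alone gave 6. For Myh11 the means of SWR, 129X1, FVB and C57BL/6 were 8.78 to 9.67, beside 8.91 in AKR and 7.89 in BALB/c. Over the whole list, the mean log2 level relative to all 24 arrays was -0.35 to -0.01 on the AKR arrays and -0.81 to -0.55 on the BALB/c arrays, so both strains lay below the mean of the series. The summed intensity of the list was 8211 to 10729 in AKR and 6411 to 6824 in BALB/c.

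The basal epithelium list had 5 of 10 genes higher in AKR and 0 lower (median 0.42). Krt14, a basal keratin gene, went the other way at a probe set that read 5.25 to 5.66 in AKR and 5.78 to 6.38 in BALB/c. Its other tested probe sets overlapped between the strains. The basal keratin gene Krt15 read 7.54 to 8.38 in AKR and 6.46 to 7.48 in BALB/c (1.99-fold, adjusted p = 0.00099), and Dst, a linker of hemidesmosomes, rose 2.01-fold (adjusted p = 1.2e-05). The other 3 calls, Krt5, Col17a1 and Trp63, depended on single arrays: 2 genes of the list were called without AKR replicate 2, and 3 without AKR replicate 1 or BALB/c replicate 2.

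Fat cell genes were lower in AKR, with 4 of 9 called, no positive difference and a median of -0.81. Adipoq, which encodes the fat hormone adiponectin, read 4.33, 4.84, 5.32 and 5.32 in AKR and 9.05, 6.38, 7.45 and 8.45 in BALB/c (7.36-fold, adjusted p = 0.00096). Car3, a carbonic anhydrase abundant in fat, was 7.85-fold lower (adjusted p = 0.0054) and Fabp4, a fatty acid carrier of fat cells, 4.90-fold (adjusted p = 0.010). Lpl, the lipase that feeds fat cells from circulating lipid, was 3.54-fold lower. The amount varied from one BALB/c array to another, with a summed intensity of the list from 640 to 4038, against 341 to 524 in AKR. FVB was as high as BALB/c (means of 7.67 for Adipoq and 8.98 for Fabp4), and SWR and C57BL/6 were as low as AKR. Leaving out single arrays gave 3 to 5 lower genes. The part of fat tissue in other differences was not tested.

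Skeletal muscle genes gave 3 of 15 higher in AKR and 0 lower, with a median of 0.01. Myh1, a fast myosin heavy chain, read 8.29, 8.26, 7.32 and 7.93 in AKR and 5.42, 5.06, 5.15 and 5.78 in BALB/c (6.05-fold, adjusted p = 0.00026), and Acta1, skeletal actin, read 8.34 to 8.67 against 6.35 to 6.88 (3.72-fold). The other defining markers did not follow them. Ckm, muscle creatine kinase, read 6.42 to 7.37 in AKR and 6.21 to 7.07 in BALB/c, and Myh4 and Mylpf were near the bottom of the scale on every array (4.04 to 5.59) and were not tested. The third call, Myh2, lies beside Myh1 on the chromosome and was lost without AKR replicate 4 or BALB/c replicate 4.

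In the other cell type lists, 3 of 18 fibroblast and matrix genes were lower in AKR, among them the matrix proteoglycan gene Dcn (1.56-fold, adjusted p = 0.00096), and 0 were higher. The median of that list was -0.09, and 0.01 without rescaling. The lower count was 1 without AKR replicate 4 or BALB/c replicate 1. The fibroblast markers Col1a1, Col1a2, Col3a1 and Lum overlapped between the strains. Macrophage genes gave 3 of 13 lower and 0 higher (median -0.26), with Lyz1, a lysozyme with a close copy in Lyz2, 1.96-fold lower (adjusted p = 0.0071). The macrophage marker Adgre1 read 6.55 to 6.78 in AKR and 6.71 to 7.33 in BALB/c. Endothelium had 1 of 10 higher and 1 lower, T and B lymphocytes 0 of 8 higher and 1 lower, nerve and glia 1 of 8 higher and 0 lower, and blood 0 of 3 higher and 1 lower. Each of these single calls was lost in the fit to the 8 arrays alone.

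**Figure D5:**
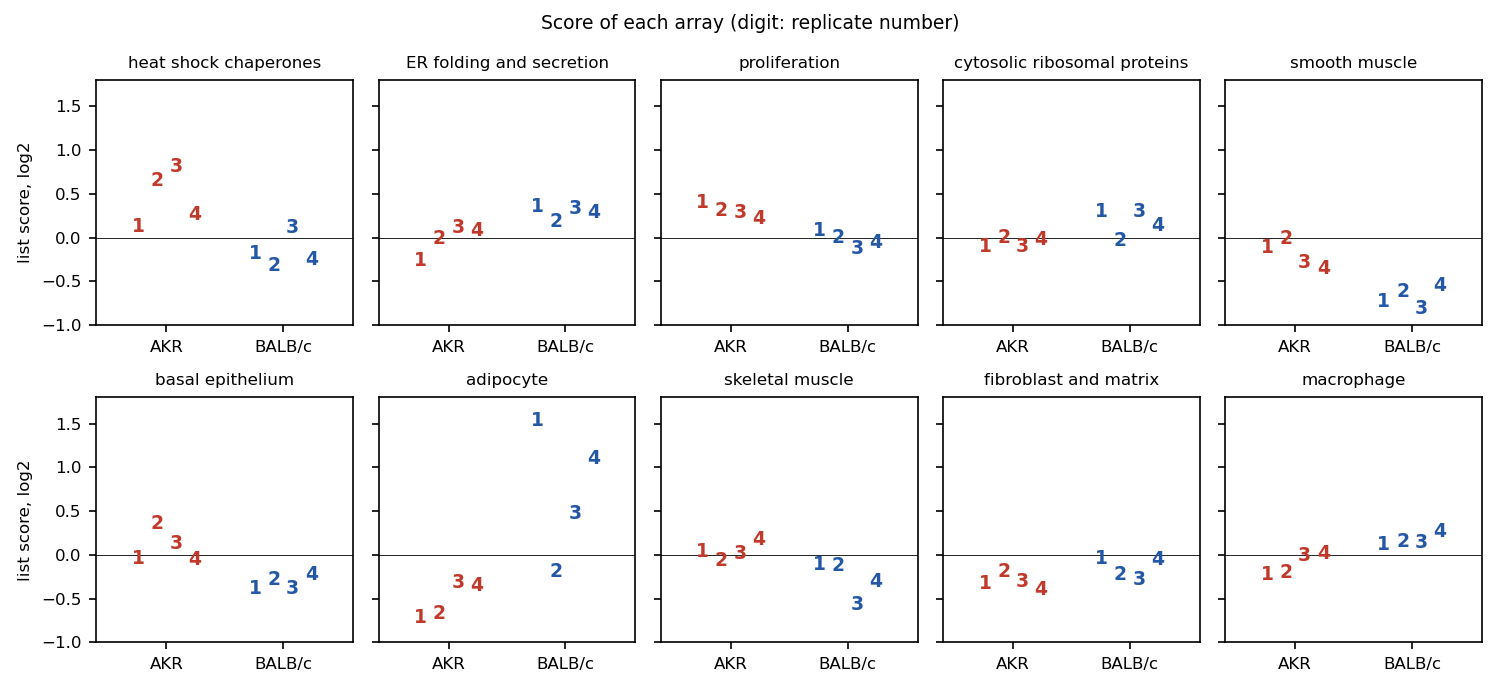
The score of each array is the mean over a list's genes of its log2 level minus the mean of all 24 arrays; digits give the replicate, red for AKR and blue for BALB/c, in 10 of the lists. Smooth muscle, basal epithelium, proliferation and skeletal muscle scores are higher on every AKR array than on any BALB/c array. ER, adipocyte and macrophage scores are lower on every AKR array than on any BALB/c array. Ribosomal protein and fibroblast scores overlap. The BALB/c adipocyte scores spread from -0.19 to 1.53, and the heat shock score of BALB/c replicate 3 (0.12) is close to that of AKR replicate 1 (0.13).

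The MHC genes differed gene by gene rather than as a group. AKR and BALB/c are known to carry different MHC haplotypes. Of 13 class I and antigen processing genes, 2 were higher in AKR and 3 lower (median -0.01). H2-K1 was 3.73-fold lower, with 8.63 to 9.03 in AKR and 10.50 to 10.81 in BALB/c (adjusted p = 5.4e-09), and 3 of its 4 probe sets were called lower. H2-D1 had 8 probe sets, of which 6 were lower, 1 was higher and 1 was not called. The extremes were 17.5-fold lower (5.49 against 9.62) and 17.0-fold higher (9.30 against 5.21), so the level of the gene cannot be compared between these strains on these arrays. Tap2, a subunit of the peptide transporter, was 1.58-fold higher, a call lost in the fit to the 8 arrays alone. Of 10 class II genes, 2 were lower and 0 higher. H2-Ea, the class II E alpha chain, read 4.98, 4.69, 5.09 and 4.96 in AKR and 7.36, 8.02, 7.68 and 7.25 in BALB/c (6.27-fold, adjusted p = 3.4e-07). The other 4 strains had H2-Ea means of 4.68 to 5.21, as low as AKR. The haplotype of AKR is generally described as expressing this chain, so the low AKR value is a reading of this 1 probe set and does not show that the transcript is absent; how well the probes match the AKR allele was not tested.

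Of 20 proliferation genes, 5 were higher in AKR and 0 lower, with 18 positive differences and a median of 0.31. Rrm1, the large subunit of ribonucleotide reductase, rose 1.48-fold at its brightest probe set (limma adjusted p = 0.00046). Another of its probe sets was not called, with a difference of 0.045. Mcm6, a subunit of the replicative helicase, read 6.45, 6.21, 5.87 and 5.24 in AKR and 4.51, 4.50, 5.65 and 4.36 in BALB/c (2.27-fold, adjusted p = 0.0057), so that the groups overlapped, and its call was lost in the fit to the 8 arrays alone. The count was 3 without BALB/c replicate 3 or BALB/c replicate 4. D cyclins and growth arrest genes gave 3 of 20 higher and 2 lower. The antiproliferative gene Btg1 fell 1.49-fold (adjusted p = 0.00011), and Ccnd2 was 1.66-fold higher, with 6 of its 7 probe sets called, a call of the brightest that was lost in the fit to the 8 arrays alone. Prostate tumour suppressor and oncogene lists had 3 of 23 higher and 2 lower, and immediate early genes 2 of 19 higher and 2 lower. Without AKR replicate 2 each of these last lists had 1 higher and 0 lower.

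Most of the lower calls in the ribosomal and respiratory lists were lost under quantile normalization or in the fit to the 8 arrays alone. Of 22 cytosolic ribosomal protein genes 9 were lower and 2 higher (median -0.35), but 0 were lower under quantile normalization (median -0.02). Rpl6 read 11.52 to 11.68 in AKR and 11.96 to 12.13 in BALB/c (1.38-fold), and Rps6 went the other way (1.83-fold higher, adjusted p = 0.00052). The Rps6 probe set had means of only 7.66 in AKR and 6.79 in BALB/c, far below the level of Rpl6. Of 32 respiratory chain genes 6 were lower and 1 higher (median -0.13), with 3 lower under quantile normalization (median -0.03) or without rescaling (median -0.02) and 0 in the fit to the 8 arrays alone.

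Glycosylation genes had a median near that of all genes, 0.01, but some large single differences. Of 23 tested, 4 were higher and 1 lower, and the 4 higher calls stood whichever array was left out. B4galnt2, which caps glycans with N-acetylgalactosamine, read 8.91 to 9.51 in AKR and 7.40 to 7.76 in BALB/c (3.08-fold, adjusted p = 3e-08). The sialyltransferase genes St6galnac6 and St6galnac4 were 2.84-fold and 2.28-fold higher. Galnt2, which starts O-glycans, was 3.01-fold lower at its brightest probe set, while the other 2 probe sets were not called.

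Metal and redox genes were called in both directions. Of 17 metallothionein and zinc transporter genes 2 were higher and 2 lower. Mt1, which binds zinc and copper, read 10.92 to 11.28 in AKR and 11.90 to 12.42 in BALB/c (1.96-fold lower), its relative Mt2 was 1.90-fold lower, and Slc39a4, a zinc importer, was 2.90-fold higher (adjusted p = 0.0023). Glutathione and detoxification genes gave 3 of 32 higher and 3 lower, with Gpx4, which removes lipid peroxides, 1.5-fold lower. Glo1, the detoxifying glyoxalase and one of 18 genes listed for reported strain variants (2 higher, 2 lower), was 1.84-fold higher, and all 3 of its probe sets were called.

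Ion transport and carbonic anhydrase genes, Kcnk3, Car2 and Car3 included, gave 4 of 17 higher and 3 lower. Slc12a2, a salt cotransporter, was 1.39-fold lower, lost under quantile normalization and in the fit to the 8 arrays alone. Of the Ly6 and progenitor surface genes 2 of 9 were higher and 2 lower, with Cd44, a hyaluronan receptor, 1.87-fold higher (adjusted p = 0.0015), Cd24a 2.01-fold lower at the brightest of 3 probe sets, all called lower, and Prom1, which encodes CD133, 1.93-fold lower. Amino acid stress and serine synthesis genes had 1 of 17 higher and 1 lower. The lower one, Asns, which makes asparagine, read 8.22 to 8.33 against 9.17 to 9.36 (1.96-fold, adjusted p = 1.6e-07). Polyamine genes had 2 of 16 higher and 0 lower, with Srm, spermidine synthase, 1.46-fold higher (adjusted p = 0.0019).

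The remaining lists held few calls. Neuropeptide genes gave 1 of 14 higher and 2 lower, Tac1 among them. Cholesterol and fatty acid synthesis had 4 of 25 higher and 1 lower, of which the desaturase gene Fads2 (1.55-fold higher, adjusted p = 0.0013) kept its call under every alternative. The higher count was 1 without AKR replicate 3 or BALB/c replicate 2. Apolipoproteins had 2 of 11 higher and 2 lower, interferon-induced genes 1 of 20 higher and 0 lower, complement genes 0 of 11 higher and 2 lower, and seminal vesicle genes 0 of 3 in either direction. Cd55, a shield against complement, was 1.92-fold lower (adjusted p = 0.00018).

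Probe sets of one gene did not always tell the same story. Of 3315 genes with several tested probe sets, 887 had at least 1 called. In 99 of these all were called in one direction, in 772 only some were called, all in one direction, and in 16, Canx, H2-D1 and Pdxdc1 among them, probe sets were called in both directions.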

How the data were processed

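Total RNA of the ventral prostate was labelled and hybridised to 1-colour arrays. The deposited values are linear intensity per probe set; MAS5 is named, without a version or settings, per the submitters' processing notes, and every deposited column has the same mean. Controls (64 probe sets) were left out, arrays were rescaled to one 2% trimmed mean, 16 was added and log2 taken. Probe sets above their array's 40th percentile on at least 4 arrays were kept (15775 of 22690). A linear model with 1 mean per strain over all 24 arrays was fitted with limma 3.58.1 in R 4.3.3 (18 residual degrees of freedom), with p-values adjusted over all probe sets tested, and tested on simulated data. Symbols came from the platform annotation through RefSeq: 20393 probe sets had 1 symbol, 691 several and 1606 none. Genes named were the 15 called, non-overlapping genes with the largest difference in each direction, up to 6 called genes per list, and cell type markers; Hspa5, the chromosome neighbours and the probe sets without a single symbol were chosen after their values were seen, as were the promoter motif and its windows. The members and lists were chosen with earlier results of these data known. The number of arrays limits the precision. The 17 alternatives varied the pseudocount, filter, scaling, arrays and model.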

Additional observations from a re-analysis of the deposited data

Results flagged for a closer look

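In 15 of 298 groups of 4 arrays, 1 array stood far from the other 3 by Dixon's criterion. Chance gives about 1 in 20 groups, which is about the share seen, so no pattern is read from them. Values are log2(intensity + 16), each beside the nearest of the other 3 arrays. In AKR, replicate 1 was low for Lyz2 (7.0 beside 7.56) and high for Scnn1a (7.74 beside 7.37). AKR replicate 2 was high for Ctse (8.51 beside 8.18) and low for Fabp4 (5.84 beside 6.38). AKR replicate 3 was high for Ndufa9 (8.65 beside 8.43) and low for Slc12a2 (11.92 beside 12.49). AKR replicate 4 was high for Rrm1 (7.31 beside 7.03) and Tesc (5.14 beside 4.66). In BALB/c, replicate 1 was high for Ncoa1 (7.29 beside 7.22) and Scd2 (10.85 beside 10.54). BALB/c replicate 2 was low for Azgp1 (9.13 beside 9.66) and high for Tac1 (10.62 beside 10.39). BALB/c replicate 3 was high for Hspa1a (7.07 beside 5.61), Hsph1 (7.76 beside 6.67) and Mcm6 (5.65 beside 4.51).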

How the results depend on the processing

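The count of 1992 called probe sets lay between 1848 and 2126 under another pseudocount, filter, quantile normalization or prior, and between 1491 and 2060 when single arrays were left out. Fitted to the 8 arrays alone it was 752, with 411 higher and 341 lower; this fit has fewer arrays from which to estimate the spread. Without rescaling 1804 were higher and 569 lower. Single arrays left out gave 815 to 1150 higher, 676 to 910 lower and 307 to 355 at least 2-fold apart; a pseudocount of 64, which shrinks the fold of faint genes, left 122 at least 2-fold. Replicate numbers did not pair the samples (correlations of same-numbered deviations 0.05, -0.21, -0.12 and 0.09), and with a replicate block 1908 were called. No named gene changed direction under any alternative, and 72 of 149 kept their call under all of them. Among the lists, counts of 4 or fewer often moved by over 1.5 times when 1 array was left out. No detection calls were used, so readings near 4 on the log2 scale have no known signal over background.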

Other observations

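Called genes also lay side by side. Among 9416 tested genes placed in order along the chromosomes of the RefSeq annotation, 34 lay in 10 runs of at least 3 neighbours called in one direction. Of all 9431 genes tested, 5.59% were called higher and 5.47% lower. How many runs these shares alone would give was not worked out. Whether neighbours of one family, such as Myh2 and Myh1 or Nme2 and Nme1, share signal was not tested. The longest held 5 genes, all lower in AKR: Angpt2, a vessel growth factor (1.84-fold), Agpat5, an enzyme of phospholipid synthesis (1.91-fold), 6820431F20Rik (1.49-fold), 2610005L07Rik (1.41-fold) and Defb1, an antimicrobial defensin (3.12-fold). A run of 4 around skeletal actin was higher in AKR: Rab4a (1.56-fold), Acta1 (3.72-fold), Nup133 (1.33-fold) and Abcb10 (1.42-fold). Mlph, a melanosome transport gene (2.16-fold lower), lay in a run with Col6a3, Rab17 and Lrrfip1, all lower. Rbm39, a splicing factor gene, was 2.71-fold lower beside Phf20 (1.98-fold) and Scand1 (1.6-fold), and Pomt1, an O-mannosyltransferase gene, 2.99-fold higher beside Uck1 (1.54-fold) and Swi5 (1.64-fold). The remaining runs were Myh2, Myh1 and Myhas and Ephb6, Trpv6 and Kel, all higher, and Mbtd1, Nme2 and Nme1, then Ero1b, Gpr137b and Nid1, then Ssna1, Anapc2 and Lrrc26, all lower. Each run was found in these data, and its reason was not tested.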
